A study of Homo sapiens with 6 samples.

Results

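The respiratory chain subunits were 77 protein-coding genes of the 19775 genes measured, chosen by their symbols on the platform: NDUFA, NDUFB, NDUFC, NDUFS or NDUFV with a number for complex I, SDHA to SDHD for complex II, the UQCR genes and CYC1 for complex III, COX4 to COX8 for complex IV and ATP5 for complex V. They fell into 32 genes of complex I, 3 of complex II, 7 of complex III, 17 of complex IV and 18 of complex V, and were read by 151 probe sets that each named 1 gene. The cells were NTERA2/D1, a human testicular teratocarcinoma line, in 2 groups of 3 arrays each. In the Vamp7 siRNA group, siRNA against human VAMP7 was applied from 24 h after plating for 72 h, and in the scrambled siRNA group a nonspecific siRNA was applied on the same schedule. Both groups shared one culture medium (Dulbecco's, modified, with serum and no phenol red), both went through transfection, and each array was 1 sample of total RNA.

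The respiratory chain passes electrons from NADH (complex I) and succinate (complex II) through ubiquinone to complex III, then by cytochrome c to complex IV, where oxygen is reduced. Complexes I, III and IV pump protons across the inner mitochondrial membrane, and complex V, the ATP synthase, uses the gradient to make ATP. The genes here are the nuclear ones, whose products are imported and joined, in all complexes but II, with subunits encoded by mitochondrial DNA. Some matched genes are no subunits in the strict sense: ATP5IF1 is the inhibitor of ATP synthase, and COX7A2L joins complexes III and IV into supercomplexes.

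The deposited values were linear intensities with the same trimmed mean on every array, and fold changes below are on the log2(intensity + 50) scale, Vamp7 siRNA minus scrambled siRNA. VAMP7 itself, a vesicle SNARE, fell to 137, 175 and 149 units in the Vamp7 siRNA arrays, against 2487, 2617 and 2741 in the scrambled arrays (log2 fold change -3.71, SE 0.11, adjusted p = 8.65e-05 in limma). It was the only gene called at an adjusted p under 0.05 in limma (1 lower and 0 higher of 19775 genes; without adjustment, p was under 0.05 for 599 lower and 718 higher genes). Of 12 measured embryonal carcinoma markers 10 lay at or above the signal of the median gene, as the labelled cell type would have it, against 0 of 5 leukocyte, 2 of 6 fibroblast and 3 of 6 endothelial markers. The summed signal of the 6 endothelial markers ran from 3952 to 4538 in the Vamp7 siRNA arrays and from 3509 to 3747 in the scrambled arrays, with 4 of 6 above 0, VWF at 0.42. That of the fibroblast markers ran from 3132 to 3848 against 3007 to 3329.9, with 3 of 6 above 0, and that of the leukocyte markers from 115 to 222 against 100.4 to 144, with 5 of 5 above 0. No marker was listed at 0, and the part of these markers in the results below was not tested. Vamp7 siRNA replicate 1 stood apart: its correlation with the remaining arrays averaged 0.988, and that of each further array lay between 0.990 and 0.991. The log2 ratio of the 3′ to the 5′ ACTB control probe set, a sign of RNA integrity, was 1.21 to 1.45 in the Vamp7 siRNA arrays. In scrambled replicates 1 to 3 it was 1.30, 1.18 and 1.78, so replicate 3 alone stood high. That of GAPDH was -0.07 to -0.01 in the Vamp7 siRNA arrays and -0.09 to -0.02 in the scrambled arrays. The part of RNA integrity in the results below was not tested. Fewer cells of a type and less RNA per cell cannot be told apart in these bulk samples.

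Most respiratory chain genes read slightly lower after VAMP7 knockdown, and none passed the test. Of the 77 genes, 68 had a log2 fold change below 0 and 9 above, with a median of -0.11, while 49.2% of all genes lay below 0 with a median of 0.003. The range was from -0.49 (NDUFA2) to 0.42 (ATP5MF, a dim probe set). Limma called 0 of the 77 (0.00506% of all genes were called lower and 0% higher), with a smallest adjusted p of 0.612. At an unadjusted p under 0.05, 7 were lower and 0 higher, against 3.03% of all genes lower and 3.63% higher. These 7 were NDUFA2, NDUFA11, NDUFA12, NDUFB8, UQCRQ, UQCR11 and COX7A2. For 18 genes all 3 Vamp7 siRNA arrays lay below all 3 scrambled arrays, and for 0 genes above (6.29% and 6.68% of all genes).

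The members were bright as a class: 70 of the 77 lay at or above the signal of the median gene. Among the brightest 10% of all genes, 57.6% lay below 0 with a median of -0.02, 11.8% had the Vamp7 siRNA arrays below all scrambled arrays and 3.08% were lower at an unadjusted p under 0.05. Of the 70 brighter members 65 lay below 0 (49.9% of all genes of that signal), and the other 5 were NDUFV1, NDUFA10, NDUFS1, ATP5F1A and ATP5PB, at 0.004 to 0.06. The 7 dimmer members were ATP5MF and 6 tissue isoforms of complex IV. The number of members below 0 ran from 60 to 72 when any 1 array was left out, and was 70 without Vamp7 siRNA replicate 1. The 7 at an unadjusted p under 0.05 became 11 without scrambled replicate 1, 4 without scrambled replicate 2, 2 without scrambled replicate 3, 3 without Vamp7 siRNA replicate 1 and 4 without Vamp7 siRNA replicate 3. Over all genes, lower or higher, 1317 were under 0.05 with every array and 1133 to 1363 with 1 array left out.

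**Figure D1:**
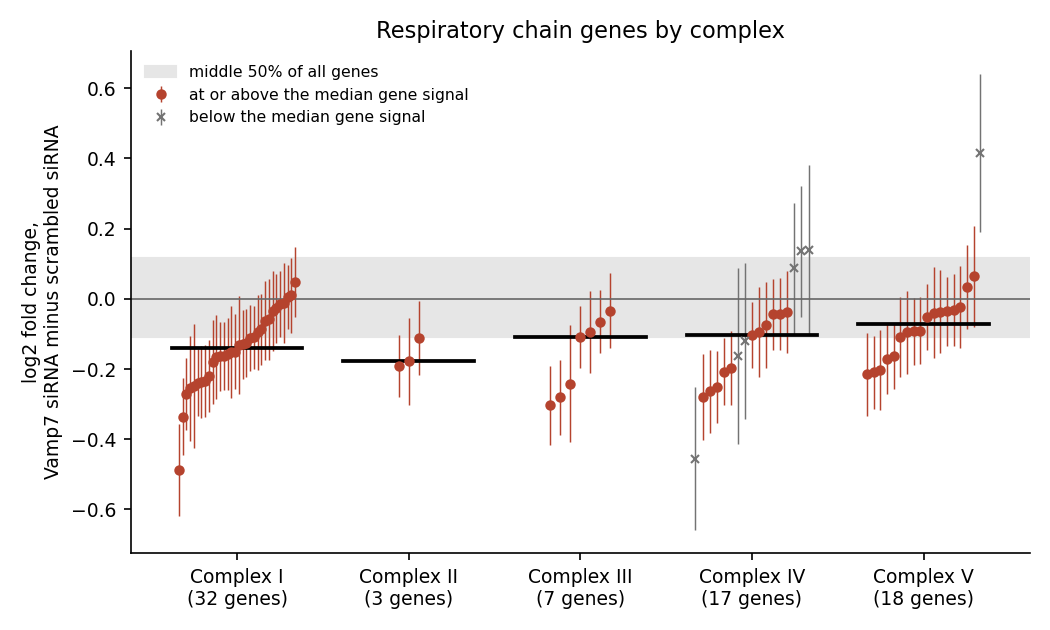
Log2 fold change (Vamp7 siRNA minus scrambled siRNA, 3 arrays each) of each of the 77 genes, by complex, with its standard error from limma. Thick lines are the medians, -0.14, -0.18, -0.11, -0.10 and -0.07 for complexes I to V; the grey band holds the middle 50% of all 19775 genes, and crosses mark genes below the median gene signal, which spread most widely.

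The letters of motifs known from promoters of respiratory chain genes were counted in RefSeq windows (GRCh38.p14), where 65 of the 77 genes had an entry. The windows ran from 250 bases before to 50 after the start, on both strands. The NRF1 motif, searched as GCGCA, any base, then GCGC, was in 16 of 65 member windows (24.6%) and 8.57% of 15842 protein-coding windows. The ETS motif bound by GABPA, searched as CCGGAAGT, was in 9 (13.8%, against 6.19%), and the YY1 motif, searched as AAGATGGC, in 10 (15.4%, against 3.91%). The motifs were counted separately, and 29 windows held at least 1 of them (44.6%, against 16.9%). Because the motifs were picked as known from such promoters, their higher share in members does not bear on the knockdown. Members with the NRF1 letters had a median log2 fold change of -0.12 (15 of 16 below 0) and those without -0.10 (42 of 49 below 0). With the ETS letters it was -0.18 (8 of 9) and without -0.11 (49 of 56), and with the YY1 letters -0.08 (9 of 10) and without -0.11 (48 of 55). None of these differences was tested. Among named genes with an entry but not shown, NDUFA11 (-0.34) and COX8C (0.13) held NRF1 letters. NDUFB8, COX7A2, ATP5MG and ATP5F1E, below 0, and NDUFV1, above 0, held none of the motifs. The 120 bases before the start are shown for 6 named genes of complexes I to IV, 5 with NRF1 or ETS letters, in capitals, and NDUFA2, the member of lowest fold change, with none.
NDUFA2, chr5:140647631-140647750, minus strand: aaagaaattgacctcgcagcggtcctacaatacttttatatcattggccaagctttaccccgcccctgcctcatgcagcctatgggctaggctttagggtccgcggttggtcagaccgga
NDUFA12, chr12:95003698-95003817, minus strand: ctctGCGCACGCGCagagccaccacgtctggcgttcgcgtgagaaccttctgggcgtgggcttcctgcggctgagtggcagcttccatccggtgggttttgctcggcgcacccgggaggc
SDHD, chr11:112086753-112086872, plus strand: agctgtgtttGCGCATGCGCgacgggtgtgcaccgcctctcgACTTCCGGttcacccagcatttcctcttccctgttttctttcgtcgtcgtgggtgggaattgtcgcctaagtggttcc
UQCRQ, chr5:132866522-132866641, plus strand: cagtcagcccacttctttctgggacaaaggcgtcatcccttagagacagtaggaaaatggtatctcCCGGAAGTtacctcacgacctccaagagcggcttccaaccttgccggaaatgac
UQCR11, chr19:1605463-1605582, minus strand: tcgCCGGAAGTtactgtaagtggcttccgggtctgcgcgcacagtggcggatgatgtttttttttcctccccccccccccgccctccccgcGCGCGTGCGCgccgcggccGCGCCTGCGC
COX5B, chr2:97645942-97646061, plus strand: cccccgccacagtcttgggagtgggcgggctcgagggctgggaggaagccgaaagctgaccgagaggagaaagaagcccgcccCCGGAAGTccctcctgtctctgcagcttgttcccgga
A match describes letters in the window only.

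Complex I, the NADH dehydrogenase, had 29 of 32 genes below 0 (median -0.14, range -0.49 to 0.05). Its Vamp7 siRNA arrays lay below its scrambled arrays for 9 of the 32 genes (6.29% of all genes and 11.8% of the brightest 10%). These were NDUFA2, NDUFA8, NDUFA11, NDUFA12, NDUFA13, NDUFB1, NDUFB2, NDUFB5 and NDUFB8. All 9 are accessory subunits, the class that surrounds the catalytic core and makes up 27 of the 32 measured genes. Of the 27 measured accessory genes 26 lay below 0 (median -0.16), the exception being NDUFA10 at 0.01. Of the 5 measured core genes, part of the catalytic core, 3 lay below 0 (median -0.03): NDUFV2 at -0.15, NDUFS3 at -0.11 and NDUFS7 at -0.03, with NDUFV1 at 0.05 and NDUFS1 at 0.004. The difference between core and accessory genes was not tested. By arm of the complex, 12 of 14 matrix-arm genes (median -0.12) and 17 of 18 membrane-arm genes (median -0.15) lay below 0.

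NDUFA2, an accessory subunit of the matrix arm, read 2499, 3162 and 3364 units in the Vamp7 siRNA arrays and 4004, 4211 and 4416 in the scrambled arrays. The groups did not overlap, and Vamp7 siRNA replicate 1 was the lowest. Its mean was 3008 ± 453 against 4210.1 ± 206 (SD, n = 3 each), 71.5% of the scrambled signal, a log2 fold change of -0.49 (95% interval -0.80 to -0.18, adjusted p = 0.612 in limma). Its other probe sets, at a mean of 33.1 and 32.7 units, gave 0.40 and 0.30. NDUFA11, a membrane-arm subunit, read 8520.4, 9364 and 9293 in the Vamp7 siRNA arrays and 10277, 11565 and 12594 in the scrambled arrays, again without overlap. Its log2 fold change was -0.34 (95% interval -0.60 to -0.08, adjusted p = 0.698 in limma). Another bright NDUFA11 probe set gave -0.40, and a dim one, at 46.3 units, gave 0.40.

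NDUFA12, a matrix-arm subunit related to the assembly factor NDUFAF2, read 9245, 10296 and 10837 in the Vamp7 siRNA arrays and 11658, 12895 and 12067 in the scrambled arrays (log2 fold change -0.27, adjusted p = 0.728 in limma). NDUFB8, a subunit of the far membrane arm, read 4530.1, 4904 and 4361 in the Vamp7 siRNA arrays and 5238, 5328 and 5728 in the scrambled arrays (log2 fold change -0.24, adjusted p = 0.739 in limma). Neither gene overlapped between groups. Another NDUFB8 probe set gave -0.21 at a mean of 3924 units, and one at 243 units gave 0.35. NDUFV1, the core subunit that binds NADH and the flavin cofactor, read 4247, 3989 and 3582 in the Vamp7 siRNA arrays and 3797, 3852 and 3758 in the scrambled arrays. All 3 scrambled values lay within the range of the Vamp7 siRNA values, with a log2 fold change of 0.05 (95% interval -0.19 to 0.28, adjusted p = 0.946 in limma), which turned to -0.01 without Vamp7 siRNA replicate 1. Its other probe set, at 16.4 units, gave -0.16.

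Complex II, succinate dehydrogenase, is the complex without mitochondrially encoded subunits and also an enzyme of the citric acid cycle. All 3 measured genes lay below 0 (median -0.18), and the median was -0.10 without Vamp7 siRNA replicate 1. SDHC, a membrane anchor, read 4030.3, 3786 and 4156 in the Vamp7 siRNA arrays and 4683, 4521 and 4483 in the scrambled arrays. The groups did not overlap, and its log2 fold change was -0.19 (95% interval -0.40 to 0.02, adjusted p = 0.759 in limma). SDHD, the other anchor, read 3089, 3871 and 3445 in the Vamp7 siRNA arrays and 3528, 3979.7 and 4272 in the scrambled arrays, with overlap (-0.18, adjusted p = 0.833 in limma). SDHA, the flavoprotein, was at -0.11. Of the 7 SDHC probe sets, 5 lay below 0, between -0.19 and -0.03, and the other 2, at 424 and 159 units, were at 0.07 and 0.05. A second SDHD probe set, at 31.8 units, gave 0.21.

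Complex III, the cytochrome bc1 complex, had all 7 measured genes below 0 (median -0.11), from UQCRQ at -0.30 to UQCRB at -0.03. The median was -0.17 without scrambled replicate 1. The Vamp7 siRNA arrays lay below the scrambled arrays for 3 of the 7 genes (6.29% of all genes and 11.8% of the brightest 10%). These were UQCRQ, UQCR11 and UQCR10, which are small accessory subunits. The 3 measured core genes UQCRC1, UQCRC2 and CYC1 overlapped between groups (median -0.10). UQCRQ read 4292, 5060.2 and 4763 in the Vamp7 siRNA arrays and 5483, 5538 and 6442 in the scrambled arrays, 80.8% of the scrambled signal (log2 fold change -0.30, 95% interval -0.57 to -0.04, adjusted p = 0.728 in limma). UQCR11 read 9992, 8884 and 9155 in the Vamp7 siRNA arrays and 10703, 10902 and 12526 in the scrambled arrays (-0.28, adjusted p = 0.728 in limma), and its second probe set, at 608 units, gave -0.18. Neither gene overlapped between groups. CYC1, the cytochrome c1 subunit that hands electrons to cytochrome c, read 3468, 4540.5 and 4665 in the Vamp7 siRNA arrays and 5395, 4108 and 5511 in the scrambled arrays, with overlap (-0.24, adjusted p = 0.831 in limma).

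Complex IV, cytochrome c oxidase, had 14 of 17 genes below 0 (median -0.10). All 11 brighter genes lay below 0, and 3 of them did not overlap between groups: COX7A2, COX6A1 and COX7B. Of all genes 6.29% were lower without overlap, and of the brightest 10% of genes 11.8%. The 6 isoforms known from particular tissues, COX4I2, COX6A2, COX6B2, COX7A1, COX7B2 and COX8C, all read below the median gene signal, with 3 below 0 and 3 above. Without scrambled replicate 1 the median was -0.18, and without scrambled replicate 2 it was -0.065. COX7A2, the widely expressed form of subunit VIIa, read 10225, 11354 and 12086 in the Vamp7 siRNA arrays and 12923, 14070.2 and 13069 in the scrambled arrays, 84% of the scrambled signal (log2 fold change -0.25, adjusted p = 0.74 in limma). COX5B, a zinc-binding subunit on the matrix side, read 9863, 11596 and 10512 in the Vamp7 siRNA arrays and 11411, 13117 and 14413 in the scrambled arrays. Its groups overlapped by scrambled replicate 1 alone, and its log2 fold change was -0.28 (adjusted p = 0.751 in limma), with -0.19 and -0.23 on its other bright probe sets and 0.02 on one at 116 units.

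COX4I2, an oxygen-responsive isoform known from lung, read 47.1, 83.4 and 78.8 in the Vamp7 siRNA arrays and 118, 153 and 76.1 in the scrambled arrays (log2 fold change -0.46, SE 0.20, adjusted p = 0.754 in limma). Its signal was near the added offset, so the scale compresses the difference between its groups. The same holds for the other dim members, whether above or below 0. COX8C, an isoform known from testis, read 5.32, 6.17 and 38.1 in the Vamp7 siRNA arrays and 10.96, 7.46 and 9.07 in the scrambled arrays. Vamp7 siRNA replicate 3 alone was high, and the log2 fold change of 0.13 (adjusted p = 0.911 in limma) turned to -0.09 without it.

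Complex V, the ATP synthase, had 15 of 18 genes below 0 (median -0.07). The median was -0.13 without scrambled replicate 1 and -0.025 without scrambled replicate 2. In the catalytic F1 sector 4 of 5 genes lay below 0 (median -0.04), with the alpha subunit ATP5F1A at 0.06 and the beta subunit ATP5F1B at -0.02. The 3 genes for the proton-carrying c ring, ATP5MC1, ATP5MC2 and ATP5MC3, were at -0.04, -0.04 and -0.20. ATP5MG and ATP5MJ were the 2 of 18 genes without overlap between groups, both lower. Among all genes 6.29% were lower without overlap, and among the brightest 10% of genes 11.8%, close to the share in complex V. ATP5MG, a membrane subunit that takes part in pairing the enzyme, read 18256, 19952 and 19494 in the Vamp7 siRNA arrays and 20036, 23671 and 23181 in the scrambled arrays (log2 fold change -0.21, adjusted p = 0.775 in limma). All 4 of its probe sets lay below 0, from -0.26 to -0.12. ATP5F1E, the epsilon subunit of the central stalk, read 11547, 13341 and 12602 in the Vamp7 siRNA arrays and 13167, 16361 and 14103 in the scrambled arrays (-0.21, adjusted p = 0.795 in limma), and its second probe set, at 68.8 units, gave 0.19.

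ATP5MF, the f subunit, was the member with the highest fold change, and its probe set was dim. It read 48.5, 19.7 and 78.5 in the Vamp7 siRNA arrays and 23.9, 12.5 and 30.4 in the scrambled arrays, with overlap (log2 fold change 0.42, SE 0.23, adjusted p = 0.792 in limma). A bright probe set naming both ATP5MF and ARMC2-AS1, left out of the members, averaged 14516 units and went the other way, at -0.24 without overlap. ATP5IF1, the inhibitor, had probe sets at -0.05, -0.23 and 0.32, the last at 437 units with its groups not overlapping.

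**Figure D2:**
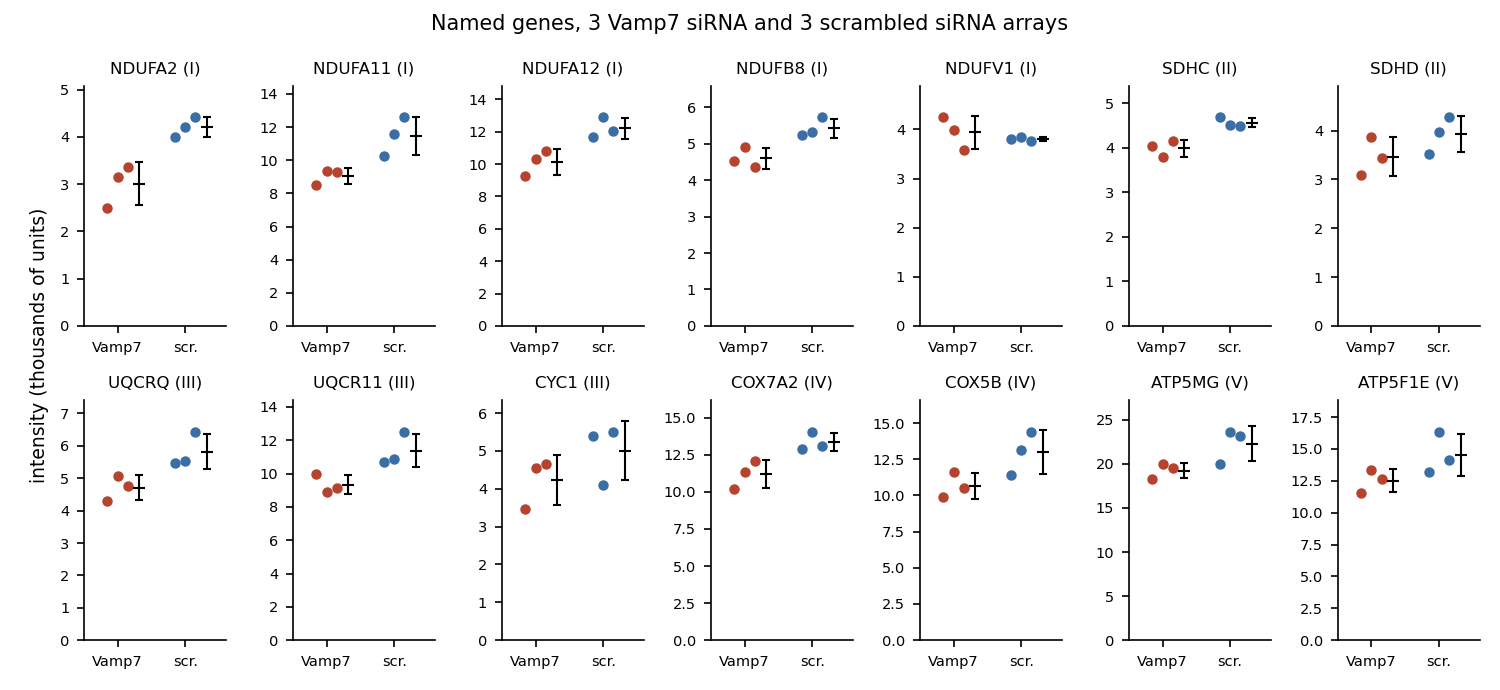
Intensity, in units divided by 1000, on axes from 0, of the 14 named respiratory chain genes with a mean above 1000, with the complex in brackets. Points are the 3 Vamp7 siRNA arrays (left) and the 3 scrambled siRNA arrays (right, scr.), and bars are mean and SD; NDUFA2 averaged 3008 against 4210.1 units, and NDUFV1 3939 against 3802.

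The mean log2 level of each complex on each array, after subtracting that array's mean over all genes, shows which arrays carried the shift. For complex I it was 3.88, 3.98 and 3.97 in Vamp7 siRNA replicates 1 to 3 and 4.02, 4.11 and 4.14 in scrambled replicates 1 to 3, so the groups were apart by 0.05. For complex II it was 2.65, 2.73 and 2.79 against 2.83, 2.92 and 2.92, with a gap of 0.03. For complex III it was 4.29, 4.41 and 4.41 against 4.48, 4.52 and 4.603, with a gap of 0.07. In these 3 complexes Vamp7 siRNA replicate 1 was the lowest array, and scrambled replicate 1 the lowest of its group.

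Complexes IV and V overlapped between groups. Complex IV read 2.61, 2.65 and 2.69 in the Vamp7 siRNA arrays and 2.66, 2.83 and 2.81 in the scrambled arrays. Complex V read 4.62, 4.605 and 4.64 in the Vamp7 siRNA arrays and 4.55, 4.77 and 4.72 in the scrambled arrays, where scrambled replicate 1 was the lowest of all 6. Over the 77 genes, Vamp7 siRNA replicate 1 was the lowest array for 37. Scrambled replicate 3, the array with the highest ACTB ratio, was the highest for 35. The differences in shift between complexes were not tested. The complex IV and V differences of -0.12 and -0.06 stood beside scrambled SDs of 0.09 and 0.12.

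**Figure D3:**
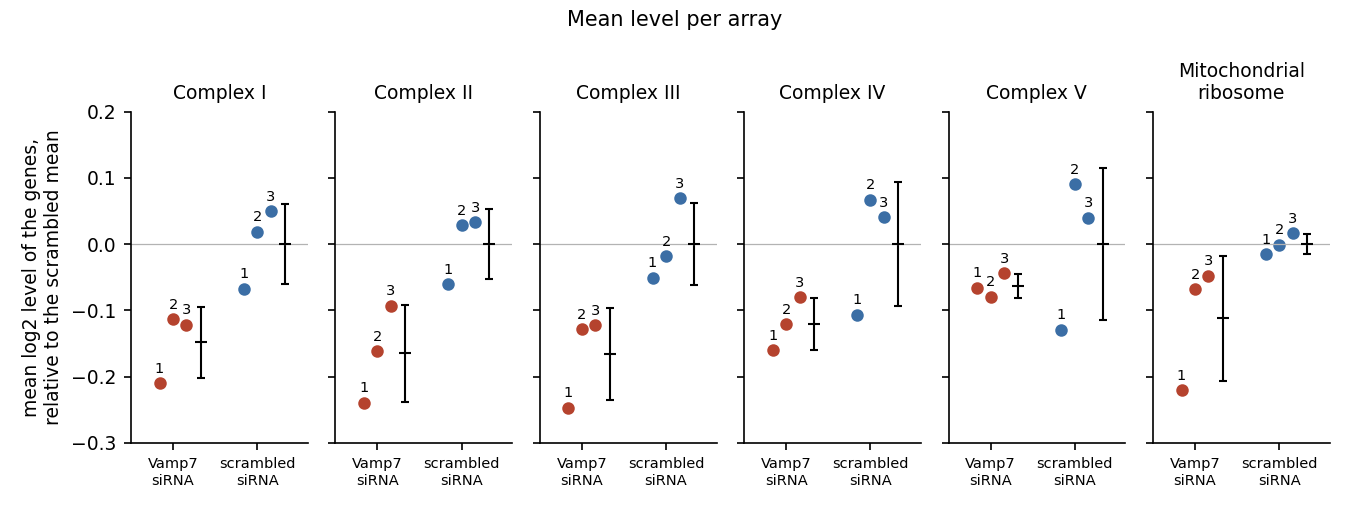
Mean log2 level of the genes of each complex, and of 75 mitochondrial ribosomal protein genes, on each array after subtracting the array's mean gene, drawn relative to the scrambled mean. Numbers are replicates and bars mean and SD of 3 arrays. The groups are apart in complexes I, II and III and in the mitochondrial ribosome. They overlap in IV and V, where scrambled replicate 1 lies low.

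Probe sets of one gene often lay on both sides of 0. Of the 151 probe sets 110 lay below 0 (median -0.09), against 46.2% of all probe sets. By complex, 42 of 61, 7 of 10, 12 of 14, 21 of 28 and 28 of 38 lay below 0 for I to V, with medians of -0.09, -0.08, -0.09, -0.10 and -0.09. Limma called 0 of them (0.00183% of all probe sets lower and 0% higher, smallest adjusted p of the 151 was 0.654), with 7 lower and 2 higher at p under 0.05 before adjustment (2.48% and 4.13% of all probe sets). The groups did not overlap for 26 lower and 3 higher probe sets (5.15% and 7.28% of all).

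Of the 44 genes with several probe sets, 18 had all below 0, 2 all above and 24 on both sides. The counts on both sides were 11 of 19 genes in complex I, 2 of 2 in II, 1 of 4 in III, 4 of 6 in IV and 6 of 13 in V. The range between probe sets of a gene was widest for NDUFA2 (0.88), NDUFA11 (0.80) and NDUFB8 (0.59) in complex I. The widest elsewhere were SDHD in II (0.39), UQCRC2 in III (0.27), COX6A1 in IV (0.38) and ATP5IF1 in V (0.55). With probe sets below the median probe set signal left out, 32 genes had several, of which 16 had all below 0, 2 all above and 14 on both sides. Those on both sides were then 3 of 11 genes in complex I, 1 of 1 in II, 1 of 4 in III, 3 of 5 in IV and 6 of 11 in V. A stricter split, at 1000 units, was chosen after the values had been seen. Among the 96 member probe sets of at least 1000 units, 87 lay below 0 (median -0.12), against 50.7% of all probe sets of that signal. Of the 21 between 100 and 1000 units 10 lay below 0 (42% of all), and of the 34 under 100 units 13 (47% of all). Of the 19 genes with several probe sets of at least 1000 units, 15 had all below 0, 0 all above and 4 on both sides: UQCRB, COX7C, ATP5F1D and ATP5PO. Complex I had 5 of 5 such genes all below 0, complex II 1 of 1, III 1 of 2, IV 2 of 3 and V 6 of 8.

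The suffix of a probe set tells how specific its probes are, with _s_at and _x_at sets able to bind several transcripts or related sequences such as the many pseudogenes of these genes. Of the member sets with the plain suffix 55 of 88 lay below 0 (median -0.07), of the _s_at sets 38 of 42 (-0.10) and of the _x_at sets 17 of 20 (-0.10), while all probe sets of these suffixes lay below 0 in 46.1%, 46.6% and 46.1%. Of the plain sets at or above the median probe set signal, 47 of 66 lay below 0. With genes read by plain or _a_at sets alone, 46 of 65 members lay below 0, against 48.3% of all genes. By complex these were 17 of 26, 2 of 2, 7 of 7, 10 of 16 and 10 of 14 for I to V. After averaging the probe sets of each gene they were 24 of 32, 2 of 3, 7 of 7, 14 of 17 and 12 of 18. The count of 29 of 32 in complex I thus rests in part on the choice of the brightest probe set. The share also fell from 15 of 18 in complex V in either setting. It fell from 14 of 17 in complex IV with plain or _a_at sets, and from 3 of 3 in complex II after averaging.

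**Figure D4:**
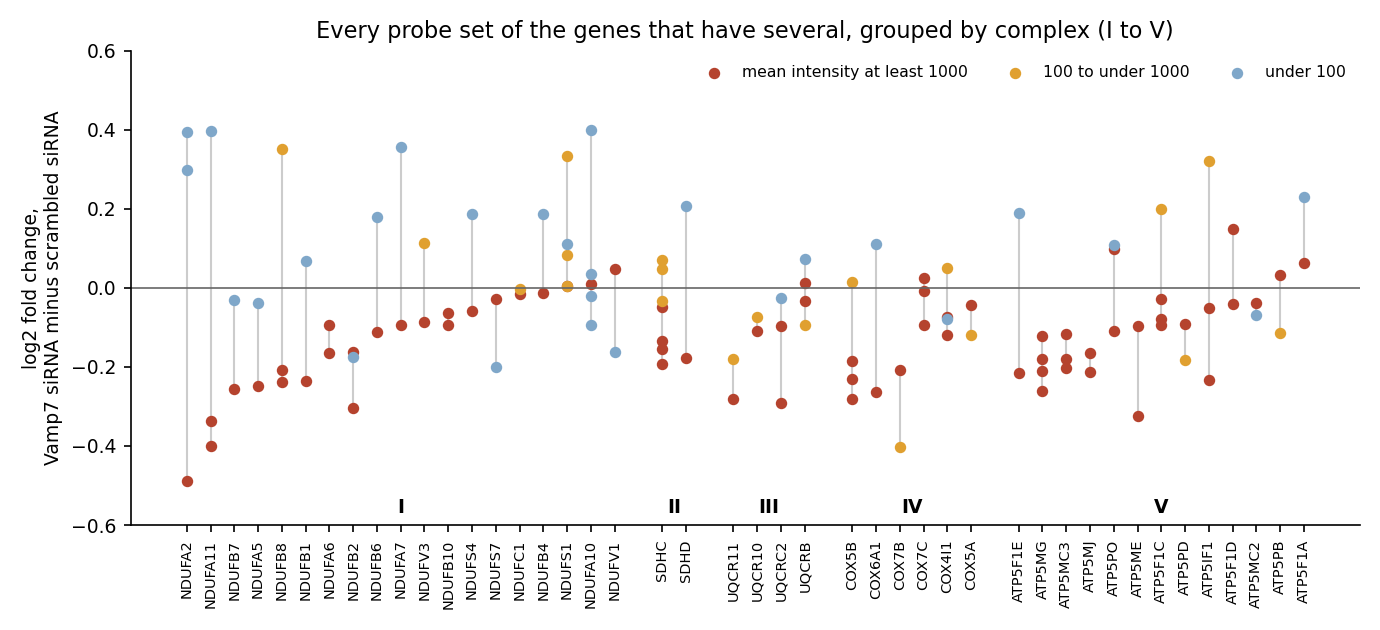
Log2 fold change (Vamp7 siRNA minus scrambled siRNA, 3 arrays each) of every probe set of the 44 genes that have several, grouped by complex and coloured by mean intensity over the 6 arrays. Probe sets of at least 1000 units lie mostly below 0 and close together, and the points above 0.2 are all under 1000 units.

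Genes around the chain were read from lists of known function. Of 57 assembly factors, which build the complexes but are not part of them, 40 lay below 0 (median -0.08), with 6 lower and 1 higher at p under 0.05 before adjustment (3.03% and 3.63% of all genes). The groups did not overlap for 12 lower and 4 higher ones (6.29% and 6.68% of all genes, and 11.8% lower among the brightest 10%). Those of smallest p were TMEM70, needed for building ATP synthase, at -0.39 (adjusted p = 0.601 in limma) and the complex II factor SDHAF3 at -0.41 (adjusted p = 0.649 in limma). TMEM70 read 2121 ± 115 in the Vamp7 siRNA arrays and 2793 ± 172 in the scrambled arrays (SD, n = 3 each). The carrier protein NDUFAB1 and cytochrome c, CYCS, both outside the symbols used, were at -0.11 and -0.06. In the citric acid cycle 7 of 12 genes lay below 0 (median -0.02), with MDH2, the malate dehydrogenase, at -0.31 and SUCLG1, a succinyl-CoA ligase subunit, at -0.26. Of 13 genes of coenzyme Q synthesis 8 lay below 0 (median -0.04), with PDSS1 at -0.29 and COQ10B at -0.26.

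Of 23 genes of mitochondrial carriers, porins and import 14 lay below 0 (median -0.02), with TOMM5 at -0.25 and VDAC3 at -0.23. Of 19 regulators of mitochondrial genes 11 lay below 0 and 8 above (median -0.04, range -0.29 to 0.23). The 2 of smallest p were GABPB1, a partner of the ETS factor GABPA, at -0.23 and TFAM, which packages mitochondrial DNA, at -0.16. These were the 2 of 19 whose groups did not overlap, with 0 higher (6.29% of all genes were lower and 6.68% higher without overlap). The factors whose motifs were searched were at 0.11 (NRF1), 0.06 (GABPA) and -0.06 (YY1), each with overlap between groups. No gene of these lists passed in limma. The 75 mitochondrial ribosomal protein genes, whose ribosome makes the mitochondrially encoded subunits, lay below 0 in 59 cases (median -0.10), with 18 lower and 2 higher without overlap (6.29% and 6.68% of all genes). Their mean level per array was 2.68, 2.84 and 2.86 in the Vamp7 siRNA arrays and 2.89, 2.90 and 2.92 in the scrambled arrays. The groups were apart by 0.03, like those of complex II. The shift of the chain genes was not tested against that of the ribosomal protein genes.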

How the data were processed

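The authors deposited a linear intensity for each of 54675 probe sets on each array, scaled so that the trimmed mean (2% left out at each end) was 500.07. RMA is named in the submitters' processing notes, with no version given, but RMA gives log2 values, and which software and background correction made these intensities is not known here. Names came from the platform's annotation, with symbols updated through gene identifiers to GRCh38.p14 names. Of 54675, 41091 named 1 gene, 1801 several, 11721 none and 62 were controls, and 41037 of the 41091 matched by identifier. Of 172 probe sets matching the symbols, 21 were left out: 15 that name several genes, 4 of noncoding RNAs and 2 of pseudogenes. Subunits with no probe set naming them alone were not analysed here.

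Each gene was represented by its brightest probe set on average. Values were put on the log2 scale after adding 50, and the groups were compared in limma 3.58.1 (R 4.3.3; lmFit, eBayes) with Benjamini-Hochberg adjustment over 19775 genes, or over 54613 probe sets. A dim gene or probe set is one below the median mean signal, and none was filtered. The code was tested on simulated data. The titles call the replicates biological without saying what was separate (culture, transfection or RNA), so part of the spread behind each p-value may be technical, and 3 arrays a group limit the precision. Titles number the Vamp7 siRNA samples 1 to 3 and were used, although the descriptions of these samples do not differ in number. An exact permutation test of 3 against 3 cannot go below p = 0.1 and was not used. The lists covered assembly factors, the citric acid cycle, coenzyme Q, carriers and import, regulators and cell type markers. Genes were named by rule: VAMP7, the 4 of smallest p in complex I, 3 in III, IV and V and 2 in II, and the 1 of smallest p on the less filled side of 0, plus the 2 of smallest p in each list. Members, lists and rules were chosen with earlier results of these data known. The alternatives covered offsets, probe set choice, a dim-gene filter, normalization, centring, eBayes options, array weights, a replicate block and leaving out each array; counts over all members under them were added after seeing the data.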

Additional observations from a re-analysis of the deposited data

How the results depend on the processing

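No member passed in any of the 17 alternative fits of genes, and the medians of complexes I to V stayed below 0 in all 18 alternatives, with the every-probe-set setting included. Complex I ran from -0.18 to -0.09 and complex V from -0.13 to -0.025 over these. Leaving out 1 array moved the medians over -0.18 to -0.11 (I), -0.19 to -0.10 (II), -0.17 to -0.09 (III), -0.18 to -0.065 (IV) and -0.13 to -0.025 (V). The complex II median was -0.063 after averaging each gene's probe sets, -0.11 with plain-suffix sets alone and -0.080 with every probe set, and the complex III median was -0.18 with plain-suffix sets alone; the cause was not tested. The 7 members lower at an unadjusted p under 0.05 became 14 at an offset of 100 and 14 with dim genes left out. They became 12 after centring on the median gene, 13 with an intensity trend and 3 with plain-suffix sets alone. When 1 array was left out they ran from 2 to 11. Over all genes, lower or higher, 1317 were under 0.05 in the main fit. In these settings there were 1429, 879 (of 9888 genes), 1384, 1434 and 1119, and 1133 to 1363 when 1 array was left out. After centring, 57.9% of all genes lay below 0, against 49.2% in the main fit. The cause of these changes was not tested. Members below 0 ran from 46 of 65 (plain-suffix sets alone) to 72 of 77.

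The replicate numbers shared by the groups did not pair the arrays: the deviations of same-numbered arrays correlated at -0.01, 0.01 and -0.01. With the replicate block the medians were the same by construction, -0.14 for complex I and -0.07 for V, and 3 members were lower at an unadjusted p under 0.05. VAMP7 kept its call in all 16 alternatives that gave it a value (-3.96 to -3.42) and had no plain-suffix probe set, so 0 genes were called lower there. One gene, C19orf73, was called higher at an offset of 16 and after averaging probe sets (1 gene each). NDUFA2 turned to 0.068 after averaging probe sets and 0.40 with plain-suffix sets alone, NDUFA11 to 0.40 and COX5B to 0.015 with plain-suffix sets alone. NDUFV1 turned to -0.057 after averaging, -0.0011 with array weights and -0.0082 without Vamp7 siRNA replicate 1, and ran from -0.0082 to 0.11 when 1 array was left out. SDHD turned to 0.015 after averaging. COX8C turned to -0.086 without Vamp7 siRNA replicate 3, with a leave-out range of -0.086 to 0.25.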

Other observations

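A selection of the 21 probe sets that matched the symbols but named several genes or a noncoding relative read as follows. Of all probe sets, 5.15% were lower and 7.28% higher without overlap between groups. A bright probe set shared by ATP5MF and ARMC2-AS1 was at -0.24 (SE 0.11) with its groups not overlapping, whereas the dim set naming ATP5MF alone was at 0.42. Those shared by NDUFS3 and PTPMT1 (-0.14, groups not overlapping), by NDUFS5 and RPL10 (-0.11) and by UQCRH and UQCRHL (-0.01) were below 0. The bright set shared by NDUFC2 and NDUFC2-KCTD14, at a mean of 12362 units, was at -0.09. Of the 3 that name NDUFS8 beside microRNA genes, 2 were at -0.09 and -0.02. The third, at a mean of 497 units, was at 0.38 with its groups not overlapping. A probe set naming SDHA with its pseudogenes, at a mean of 328 units, was at 0.37, also without overlap, and SDHA alone at -0.11. The antisense RNA NDUFB2-AS1, at a mean of 16.2 units, was at 0.35 without overlap, and NDUFB2 at -0.16. The pseudogene COX6A1P1, at a mean of 18.6 units, was at -0.50 (SE 0.25) with overlap. It read 4.81, 5.83 and 5.16 in the Vamp7 siRNA arrays and 3.20, 61.9 and 30.6 in the scrambled arrays. None of the 21 passed in limma over all probe sets, where their smallest adjusted p was 0.707.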
